A study of Mus musculus with 7 samples.

Results

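Cathepsins are lysosomal proteases and cystatins are their protein inhibitors. The 10 genes described here, of 55491 gene rows in the matrix, were taken by name: the cysteine cathepsins Ctsb, Ctsc, Ctsh, Ctsl, Ctss, Ctsz and Ctsw, the aspartic cathepsin Ctsd, and the cystatins Cst3 and Cstb. All 10 were found. Their transcripts were measured by droplet 5-prime single-cell RNA sequencing in live cells sorted for CD45, CD11b or both from the tumour-bearing brain hemisphere, after freezing and thawing, with 1 library per mouse. Mice of 8 to 12 weeks received CT-2A cells, a mouse glioma line, by injection into the brain. The 4 KO mice were Sall1CreERT2 x Siglece fl/fl, labelled Siglece KO, and the 3 WT mice were Siglece fl/fl without the driver. Both groups carried the floxed alleles, and both received 2.5 mg tamoxifen per injection, daily from day 7 to day 21 and every other day after that. The driver follows Sall1, a transcription factor gene used as a microglia marker, so the deletion was aimed at microglia and not at the monocyte-derived cells of the tumour. WT mice lacked the driver allele itself, so an effect of the driver and of the deletion cannot be told apart.

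In the lysosome and the late endosome, endopeptidases such as cathepsins S, L and B cut proteins within the chain, and exopeptidases such as cathepsins C, H and Z remove residues from their ends. Cathepsin S frees MHC class II molecules from the invariant chain in professional antigen-presenting cells, and cathepsin C activates the serine proteases of cytotoxic and myeloid granules. Cystatin C, the product of Cst3, is secreted and blocks cysteine cathepsins outside cells and in the endosomal system, and stefin B, the product of Cstb, acts in the cytosol and nucleus. Microglia, the resident macrophages of the brain, are known for high lysosomal protease expression.

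The 7 libraries held 1410 to 5856 cells, with a median of 4479 to 9554 UMIs per cell (a UMI is a tag that marks 1 captured RNA molecule). Levels are CPM, the UMIs of a gene per 1000000 UMIs of the cells of a type in 1 mouse, and a mouse entered a level when it held at least 20 cells of the type. The 23 cell type names came from the authors and were joined into 9 classes. Of the marker lists checked, 7 of 8 microglia, 5 of 10 monocyte-derived, 6 of 7 conventional dendritic, 5 of 5 plasmacytoid dendritic, 6 of 8 T cell, 6 of 6 NK cell, 6 of 6 B cell and 5 of 8 tumour or stromal markers were highest in the matching class. Of all cells, 3.23% carried a barcode that also occurred in another library. Siglece in microglia stood at 10.7, 19.6, 0 and 0 CPM in KO replicates 1 to 4 and at 36.1, 45.9 and 18.6 CPM in WT replicates 1 to 3. KO replicate 2, with 1 UMI, lay above WT replicate 3. The KO mice held few microglia, 30, 21, 13 and 49 cells against 113, 92 and 96 in the WT mice.

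The genes were located in GRCm38 with the GENCODE annotation, each as a protein-coding gene: Cst3 at chr2:148871722-148875692, Ctsz at chr2:174427493-174439039, Ctss at chr3:95526786-95556403, Ctsc at chr7:88278085-88310888, Ctsd at chr7:142375911-142388038, Ctsh at chr9:90054152-90076089, Cstb at chr10:78425669-78427622, Ctsl at chr13:64359337-64370890, Ctsb at chr14:63122462-63145923 and Ctsw at chr19:5465043-5468507. Reads of some of them could overlap those of another gene on the opposite strand or the same strand, such as Fdft1 for Ctsb, Nelfcd for Ctsz and Gm49369 for Ctsd. Whether counting used strand was not given in the sources used here.

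The promoter windows of Ctsd and Ctss are shown because both genes were highest in microglia and each window holds a known short motif. Each runs from 250 bases before to 50 bases after the RefSeq transcript start in build GRCm38.p6, 5′ to 3′ on the strand of the gene. The Ctsd window lies at chr7:142387778-142388077 on the minus strand and that of Ctss at chr3:95526536-95526835 on the plus strand. The GENCODE gene of Ctsd begins upstream of the RefSeq start, so that 261 bases of its window lie inside the annotated gene and 39 outside, against 50 bases inside for Ctss. Capitals mark CACGTG (the E-box) in Ctsd, and, in Ctss, a pair of GAAA runs with any 2 bases between them (the core of an interferon response element).
Ctsd: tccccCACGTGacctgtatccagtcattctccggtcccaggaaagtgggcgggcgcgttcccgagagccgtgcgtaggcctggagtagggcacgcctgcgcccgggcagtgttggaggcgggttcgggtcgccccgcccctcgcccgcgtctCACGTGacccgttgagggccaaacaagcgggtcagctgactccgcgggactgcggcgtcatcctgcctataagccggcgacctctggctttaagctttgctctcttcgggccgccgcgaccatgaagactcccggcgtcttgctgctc
Ctss: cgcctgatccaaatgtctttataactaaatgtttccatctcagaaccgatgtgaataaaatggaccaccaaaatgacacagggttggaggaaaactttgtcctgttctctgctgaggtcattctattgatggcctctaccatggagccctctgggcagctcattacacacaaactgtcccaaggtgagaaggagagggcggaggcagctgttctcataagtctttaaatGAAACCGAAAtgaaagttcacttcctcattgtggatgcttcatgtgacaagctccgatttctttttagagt
The Ctsd window held 2 E-boxes, beginning at positions -245 and -98 from the RefSeq start, the latter inside the GENCODE gene. At -98 the Ctsd E-box lay within TCACGTGA, the palindrome of the element bound by TFEB, a transcription factor of lysosomal genes. In the Ctss window the interferon motif began at -21. Searched on both strands, CACGTG occurred in 7.15% of 32851 mouse promoter windows of the same length, TCACGTGA in 0.974% and the spaced GAAA pair in 3.44%. Among 53 lysosomal genes with a window, 26.4% held CACGTG, 13.2% held TCACGTGA and 7.55% held the GAAA pair. A lysosomal gene was counted when any of its windows held the motif, whereas the shares over all promoters count single windows. The shares are therefore not like for like. Every TCACGTGA also counts as a CACGTG. Windows were found for 6 of the 10 genes (Cst3, Ctsc, Ctsd, Ctsl, Ctss and Ctsz), and the motifs were chosen after the sequences had been seen. CACGTG occurred in 2 of the 6, those of Ctsd and Ctsl, and the GAAA pair in 1 of 6, that of Ctss. The Ctsl window lay wholly inside the annotated gene and is not shown. A match is a description of these letters and not a measured binding site.

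Among the endopeptidases, Ctss was a gene of all macrophage-like types. Its level was highest in microglia, at 5838 ± 558 CPM (SD, n = 3 mice, all WT, since no KO mouse had 20 cells under that name). P5 macrophages followed at 4268 ± 485 CPM (n = 7), P3 macrophages at 3653 ± 590 CPM and P1-P2 monocytes at 3404 ± 393 CPM. The mice with microglia did not overlap with P5 macrophages, whereas the monocyte and macrophage types overlapped with their neighbours in the order. Cells named low-quality or activated microglia held 2125 ± 265 CPM of Ctss (n = 5) and did not overlap with the macrophages. Monocyte-derived dendritic cells (mo-DCs) held 1648 ± 170 CPM of Ctss, and from pDCs at 685 ± 74.5 CPM the other types ran down to 62.4 ± 20.7 CPM in tumour or stromal cells. Type 1 and type 2 conventional dendritic cells (cDC1 and cDC2) held only 558 ± 50.8 and 653 ± 75.1 CPM of Ctss.

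Ctsl, an endopeptidase with a broad tissue range, had another order. It was highest in plasmacytoid dendritic cells (pDCs), at 1874 ± 196 CPM (n = 7), and in microglia, at 1647 ± 179 CPM (n = 3), and these types overlapped. Tumour or stromal cells came next at 1068 ± 223 CPM (n = 5), then low-quality microglia at 735 ± 288 CPM, and P3, P5 and P1-P2 cells at 567 ± 74.1, 452 ± 63.5 and 399 ± 65.5 CPM. Below proliferating macrophages, at 273 ± 58.3 CPM, the order broke: mo-DCs held 98.5 ± 30.8 CPM of Ctsl. Conventional dendritic cells were among the lowest types, with 22.8 ± 4.42 CPM in cDC1 and 28.4 ± 11.4 CPM in cDC2. When each cell was thinned to 1500 UMIs, 87.7% ± 6.34 of pDCs (n = 7) and 83.0% ± 4.07 of microglia (n = 3) held a Ctsl UMI, against 3.57% ± 1.21 of cDC1 cells. Before thinning these shares were 98.9%, 97.8% and 25.1%, with median depths per mouse of 4391 to 8756, 5236 to 6850 and 12119 to 18314 UMIs.

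Ctsb, which acts as an endopeptidase and as a carboxypeptidase, was also highest in microglia, at 4889 ± 746 CPM (n = 3), above all P5 macrophage values (2760 ± 679 CPM, n = 7). pDCs held 2093 ± 236 CPM of Ctsb, within the range of the macrophages. From P1-P2 monocytes, at 1232 ± 329 CPM, Ctsb stepped down to 585 ± 52.6 CPM in Tregs and 504 ± 150 CPM in mo-DCs with no overlap. The lowest level was in NK cells, at 183 ± 50.9 CPM. Within T cells Ctsb was highest in Tregs and lowest in proliferating CD8 T cells (211 ± 21.6 CPM), and these 2 types did not share a value.

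The exopeptidases fell into 3 patterns. Ctsc, the dipeptidyl peptidase that activates granzymes, was highest in the myeloid cells that are not dendritic. P5 macrophages held 1271 ± 161 CPM, P1-P2 monocytes 1168 ± 119 CPM, low-quality microglia 1103 ± 361 CPM and microglia 857 ± 299 CPM. Each overlapped with the next, which does not show that their levels were equal. mo-DCs stood apart below them, at 414 ± 57.0 CPM of Ctsc. In the cells that carry granzymes Ctsc was low, with 183 ± 36.7 CPM in exhausted CD8 T cells and 124 ± 30.3 CPM in proliferating CD8 T cells. Ctsh, an aminopeptidase, was highest in pDCs, at 1384 ± 113 CPM (1275 to 1557 in the 7 mice), and no other type reached that range. Ctsh then ran from 669 ± 78.1 CPM in P5 macrophages to 196 ± 63.2 CPM in B cells without a gap between neighbours, and dropped to at most 44.5 ± 23.6 CPM in T cells, NK cells and tumour cells. Ctsz, a carboxypeptidase, was highest in microglia at 1974 ± 126 CPM (n = 3), and P5 macrophages followed without overlap at 1047 ± 149 CPM. mo-DCs, cDC2 and pDCs held 639 ± 79.2, 636 ± 88.9 and 693 ± 88.1 CPM of Ctsz, and exhausted CD8 T cells held 34.6 ± 19.1 CPM.

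Ctsw, a cathepsin of cytotoxic lymphocytes, was the gene with a lymphoid pattern. NK cells held 868 ± 120 CPM (n = 7), exhausted CD8 T cells 808 ± 107 CPM (n = 6), naive or early CD8 T cells 731 ± 124 CPM and precursor-exhausted CD8 T cells 711 ± 136 CPM. The ranges of these types over mice overlapped. The CD8 types were not compared within mice, so an order of Ctsw by stage was not tested. CD4 T cell types held less, from 302 ± 85.3 CPM in follicular helper (Tfh) cells to 165 ± 61.3 CPM in Tregs, with no overlap with the CD8 types. pDCs held 63.4 ± 15.2 CPM of Ctsw, apart from the T cells above and from all other types below, which ran from 2.43 to 14.4 CPM. With cells thinned to 1500 UMIs, 73.1% ± 6.69 of NK cells held a Ctsw UMI, against 2.09% ± 2.29 of B cells, a type taken as lacking the gene. Before thinning the shares were 92.3% and 5.26%, with median depths per mouse of 3823 to 8605 and 2326 to 14095 UMIs.

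Ctsd, the aspartic protease of the lysosome which cystatins do not inhibit, separated both microglia names from all other types. Microglia held 7240 ± 832 CPM (n = 3), low-quality microglia 3520 ± 553 CPM (n = 5) and P5 macrophages 1157 ± 331 CPM (n = 7), with no overlap at either step. NK cells (651 ± 68.4 CPM) and exhausted CD8 T cells (647 ± 77.1 CPM) held as much Ctsd as P3 macrophages (711 ± 185 CPM), within the spread over mice. Conventional dendritic cells were the lowest of all types, at 43.0 ± 12.5 CPM in cDC2 and 34.5 ± 17.3 CPM in cDC1. Among T cells, precursor-exhausted CD8 T cells held 606 ± 107 CPM and naive or early CD4 T cells 228 ± 52.9 CPM.

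Of the inhibitors, Cst3 was highest in dendritic cells: 29578 ± 4942 CPM in cDC1, 21720 ± 3614 CPM in cDC2 and 15593 ± 4224 CPM in mo-DCs (n = 7 each). Microglia of the first name held 14849 ± 4425 CPM (n = 3) and overlapped with the mo-DCs. A gap followed, since proliferating macrophages and P5 macrophages held 3123 ± 1297 and 3067 ± 389 CPM of Cst3. Low-quality microglia held 1924 ± 469 CPM, far below the first microglia name. pDCs, at 886 ± 186 CPM, did not share the level of the other dendritic cells. T, NK, B and tumour cells held 284 to 745 CPM on average. After thinning to 1500 UMIs, 42.9% ± 7.72 of NK cells and 58.3% ± 14.7 of B cells held a Cst3 UMI, against 99.9% of cDC1 cells, and 80.7%, 86.0% and 100% did before thinning. Beside them, 10 myeloid genes read for free RNA summed to 482 to 3159 CPM in B cells and 571 to 1942 CPM in T cells over both genotypes, and the part of free RNA in the Cst3 values was not tested. In NK cells the same genes summed to 4023 to 5270 CPM, above the T cells in every mouse, and the sum is not taken as a reading of free RNA there.

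Cstb, the intracellular inhibitor, followed the monocytes. P1-P2 monocytes held 735 ± 211 CPM, P3 macrophages 699 ± 194 CPM and P5 macrophages 451 ± 91.7 CPM (n = 7 each), with overlap between neighbours. Tumour or stromal cells, at 300 ± 42.0 CPM, and microglia, at 295 ± 68.8 CPM, came next. Low-quality microglia, at 67.8 ± 24.5 CPM (n = 5), and B cells, at 72.9 ± 5.24 CPM (n = 6), had the lowest means and overlapped.

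**Figure D1:**
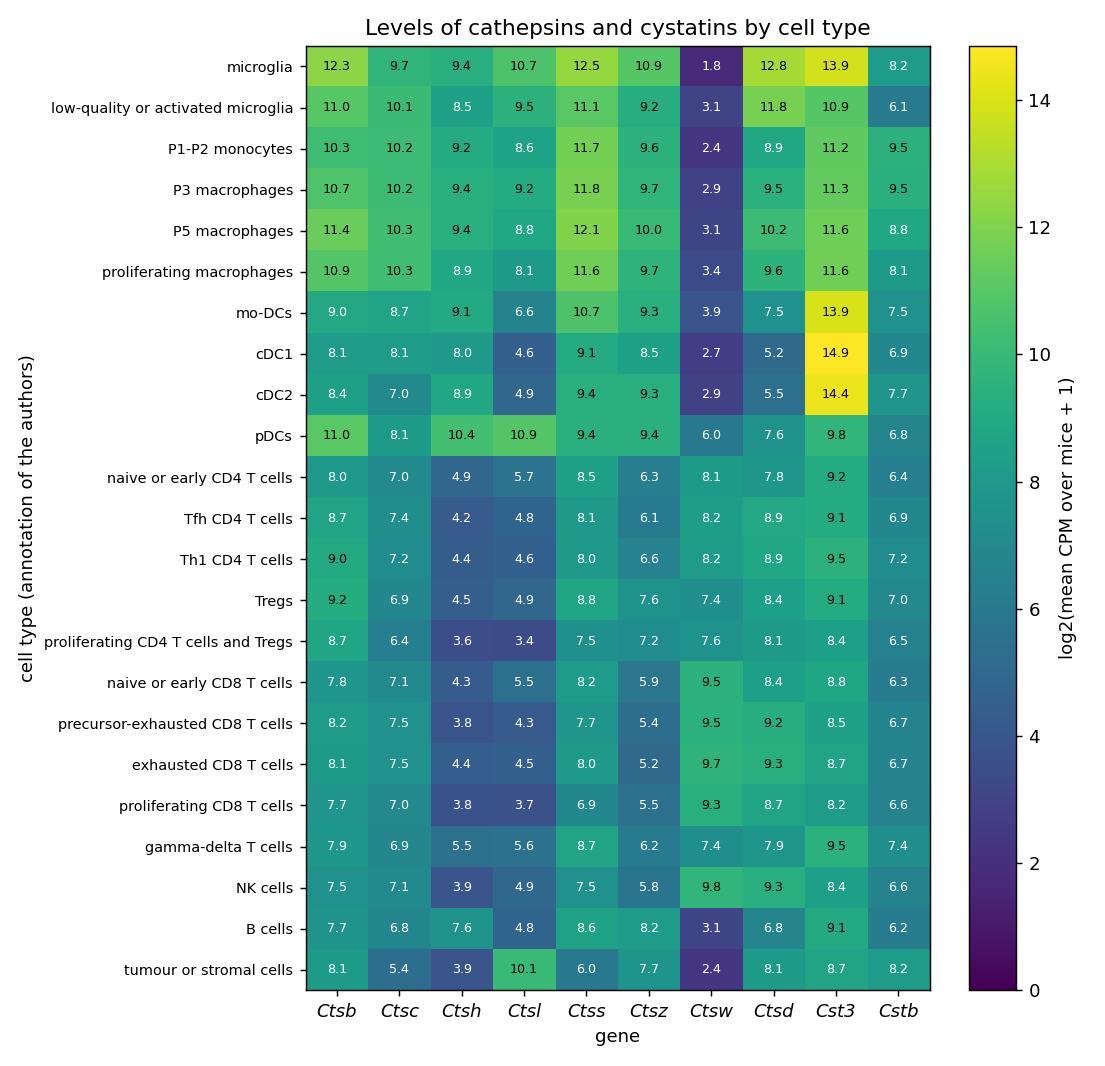
Levels of the 10 genes (columns) in the 23 cell types (rows), as log2 of the mean CPM over mice with at least 20 cells plus 1, with the value in each square. Cst3 is highest in cDC1, cDC2 and mo-DCs, Ctsd in the 2 microglia types, Ctsh in pDCs and Ctsw in NK and CD8 T cells.

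The ratio of inhibitor to protease molecules therefore varied widely between cell types. Cystatin UMIs (Cst3 and Cstb) per 100 UMIs of the 7 cysteine cathepsins were 1289 to 2068 in cDC1 and 745 to 1230 in cDC2 over the 7 mice. mo-DCs spread from 177 to 529. P5 macrophages lay at 30.9 to 38.0, P1-P2 monocytes at 30.6 to 47.8 and pDCs at 11.6 to 17.9, the lowest of the 23 types. The 3 WT mice with microglia lay at 71.4 to 136, and low-quality microglia at 20.1 to 42.0. Capture differs between transcripts, so these ratios compare cell types and do not give amounts of protein. Cystatins of the secreted kind also act outside the cell that makes them.

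Across the 23 types, Ctsc and Ctss had the most similar profiles of log2(CPM + 1), with a Pearson correlation of 0.94, followed by Ctsh and Ctsz at 0.91. The most opposed pair was Ctsz and Ctsw, at -0.90. Outside the set, the genes most like Ctss and Ctsc were Cebpa (0.97 and 0.95), a transcription factor of myeloid cells, and Cd300c2. Lamp2, a lysosomal membrane protein, was most like Ctsl (0.92), and Atp6ap1 was also close to it. For Ctsh the closest genes were Tlr9, an endosomal DNA sensor, Rassf4 and Csf2rb2, and for Ctsw they were Sytl3, Cd96 and the T cell kinase Lck. Ctsb was closest to Tmem86a, Adam17 and P2ry13, and Ctsd to Map11, Adam10 and Ppcdc. Cst3 was closest to Hfe, Lipe and Fuca1, Cstb to Ier3, Arg2 and Pla2g7, and Ctsz to P2rx4, Rassf4 and Plekho1. These are descriptions over 23 types that come from the same 7 libraries and that the authors named from the same expression values, among 7418 genes that reached 50 CPM in at least 1 type.

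The share of a gene's UMIs that a cell type held in a library combines its number of cells with the level in them. Conventional dendritic cells held 69.3% ± 2.65 of the Cst3 UMIs of a WT library (n = 3) and 63.4% ± 9.37 of those of a KO library (n = 4). Monocyte-derived cells held 63.2% ± 10.7 of the Ctsd UMIs in WT mice and 29.6% ± 13.7 in KO mice, where T cells held 51.5% ± 23.3 against 13.7% ± 10.5 in WT. T cells were 10.6 to 33.8% of the cells of a WT library and 43.5 to 79.9% of a KO library. Ctsl came from monocyte-derived cells (57.5% ± 5.90 in WT), from tumour or stromal cells (18.8% ± 9.52) and from pDCs (10.4% ± 6.35). In KO libraries these shares of Ctsl were 49.5% ± 11.3, 16.5% ± 12.2 and 19.2% ± 7.74. The comparisons below were made within cell types.

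**Figure D2:**
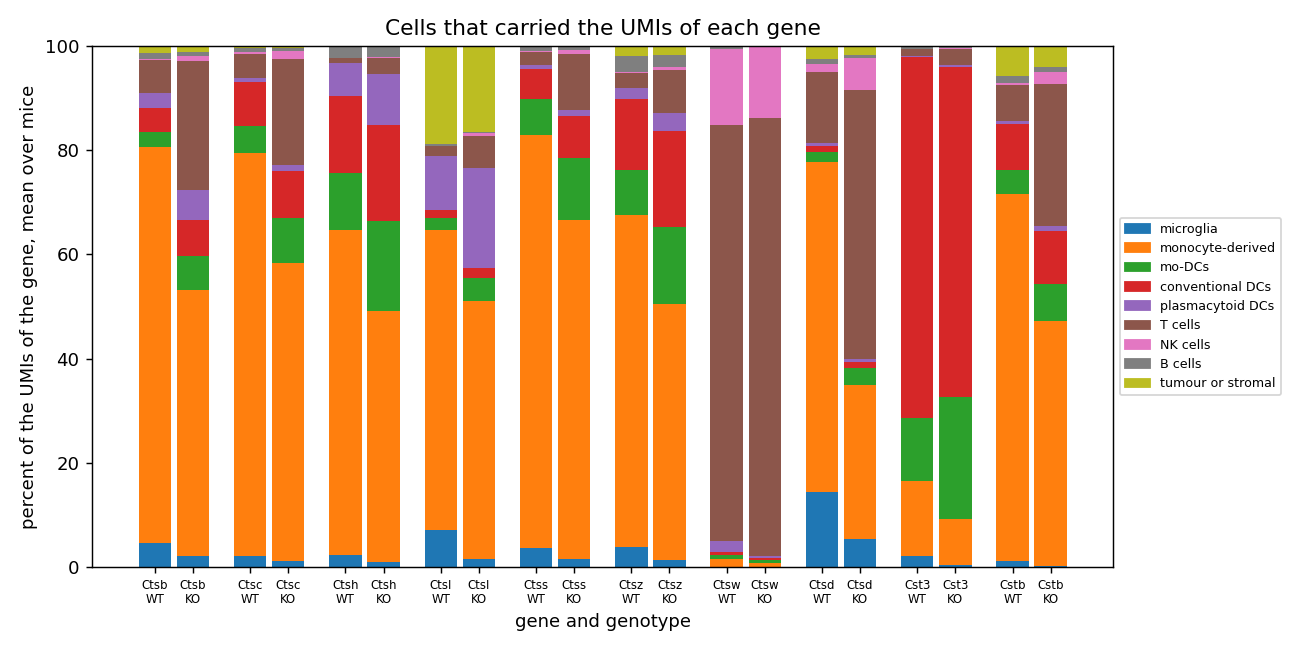
Share of the UMIs of each gene (vertical axis, percent, mean over mice) that lay in each of the 9 classes, in WT and KO libraries. T cells (brown) take a larger part of Ctsd in KO libraries, 51.5% against 13.7% in WT, and conventional dendritic cells (red) carry most of Cst3 in both.

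The genotypes were compared within each class on UMIs summed per mouse, with edgeR's quasi-likelihood test. Adjusted p-values are Benjamini-Hochberg values taken over every gene in the fit, and called means an adjusted value under 0.05. In microglia, the cells the driver is aimed at, 9 of the 10 genes passed the filter on low counts (Ctsw did not), with 3 KO mice and 3 WT mice, since KO replicate 3 held 13 microglia. None of the 9 was called, where 0.0415% of the 4820 genes tested were called (2 genes). DESeq2 called 1 of them, Ctsl, beside 1.18% of the 845 genes to which it gave an adjusted p (10 genes). At an unadjusted p under 0.05 there were 3 of 9 (Ctsl, Cst3 and Cstb), beside 11.8% of all genes tested. All 3 were lower in KO, beside 5.44% of all genes. The log2 change was below 0 for 8 of 9, beside 49.9% of all genes, with a median of -0.40 over the 9 genes and 0.000391 over all genes tested. Within the low-quality or activated microglia alone, the larger part of the KO microglia, 4 of 8 members tested lay below 0, beside 49.1% of all genes, with a median of 0.023 over the 8 genes and 0.011 over all genes, from 2 KO and 3 WT mice.

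Ctsl showed the largest difference of the 9 in microglia. It stood at 686, 900 and 494 CPM in KO replicates 1, 2 and 4 and at 1446, 1495 and 1355 CPM in the 3 WT mice. Every KO mouse lay below every WT mouse, and so did KO replicate 3, left out of the fit, at 461 CPM from 13 cells. T cell markers also separated the groups in microglia: 8 of them summed to 69.7 to 139 CPM in the 3 KO mice and 14.4 to 41.1 CPM in WT, from 7 to 25 UMIs per mouse, with 1 to 4 of the 8 at 0. Their part in the microglia values was not tested. The log2 change was -1.10 with an SE of 0.25 and an unadjusted p of 8.41e-05, and its adjusted p of 0.057 was just over the threshold. All KO values lay below all WT values for 2 of the 9 genes (Ctsl and Ctsz), beside 9.75% of the genes tested. Without KO replicate 2, which held 21 cells, Ctsl was called, with a log2 change of -1.27 and an adjusted p of 0.0217.

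The 2 microglia names differ in level and in share between the genotypes, so Ctsl was also read within each. Low-quality or activated microglia made up 66.7, 66.7, 100 and 69.4% of the microglia of KO replicates 1 to 4 and 61.1, 47.8 and 59.4% of those of WT replicates 1 to 3. Within them Ctsl stood at 625, 289, 461 and 331 CPM in the 4 KO mice (20, 14, 13 and 34 cells) and at 792, 808 and 1120 CPM in the WT mice. Again no KO mouse reached the lowest WT mouse. Between the 2 KO and 3 WT mice with at least 20 such cells, 10.5% of the genes tested lay lower in every KO mouse. The log2 change there was -0.95 ± 0.33 (SE, adjusted p = 0.31) with 2 KO mice, and -1.09 (adjusted p = 0.12) with all 4 at a minimum of 10 cells. Within the first microglia name Ctsl stood at 724, 1450 and 629 CPM in KO replicates 1, 2 and 4, from 10, 7 and 15 cells, and at 1776, 1722 and 1442 CPM in the WT mice. KO replicate 2, with 39 UMIs of Ctsl in 7 cells, lay between the WT mice here. At a minimum of 10 cells the log2 change was -1.20 with an adjusted p of 0.0721 (2 KO mice and 3 WT mice). The direction was thus the same within both names and neither passed the threshold. Reads of Ctsl could overlap those of Gm47123 on the opposite strand and Gm49230 on the same strand, which held 29 and 2 UMIs against 47485.5 of Ctsl in the whole matrix.

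**Figure D3:**
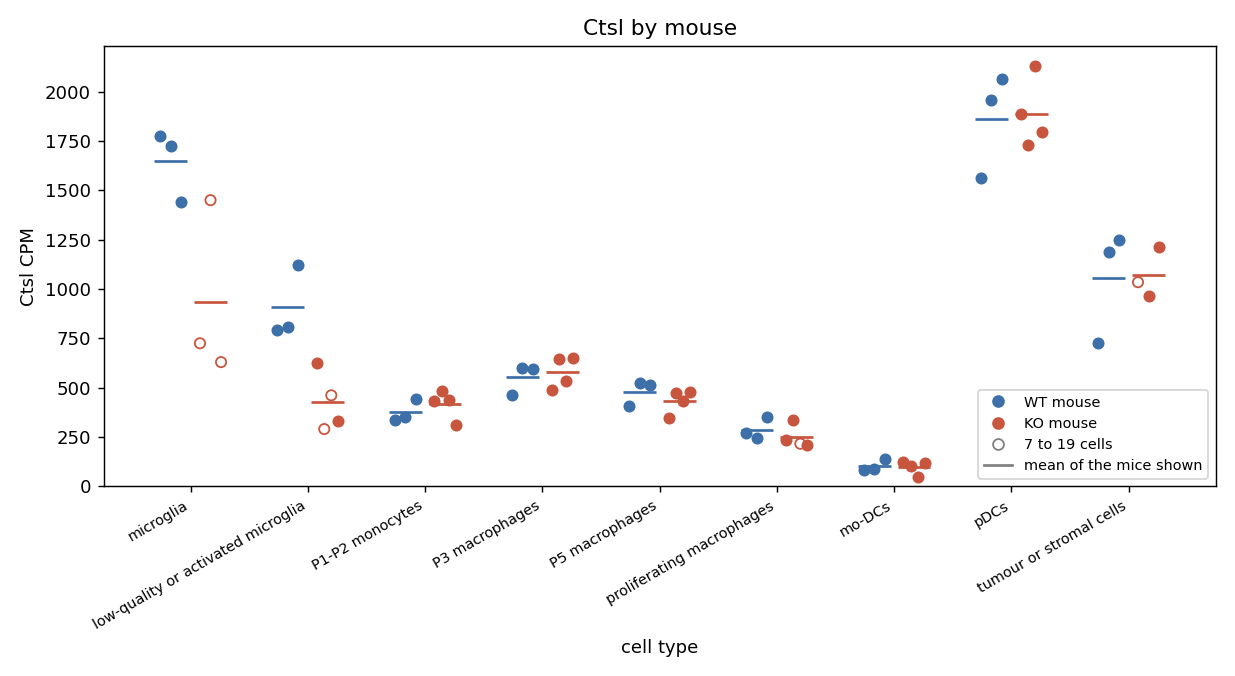
Ctsl in CPM (vertical axis) for each mouse in 9 cell types, with WT in blue and KO in red, open circles for 7 to 19 cells and a line at the mean of the mice shown. In low-quality or activated microglia the 4 KO mice (289 to 625) lie below the 3 WT mice (792 to 1120), while pDCs and P3 macrophages of the 2 genotypes overlap.

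For the inhibitors in microglia, Cst3 stood at 5225, 9122 and 7215 CPM in KO replicates 1, 2 and 4 and at 9261, 15591 and 9050 CPM in WT. KO replicate 2 lay just above WT replicate 3, so the groups overlapped, and the log2 change was -0.68 ± 0.23 (SE, adjusted p = 0.23). The first microglia name, with 14849 CPM of Cst3 against 1924 CPM in the low-quality cells, made up a smaller share of the microglia in the KO mice. Within the low-quality cells the log2 change of Cst3 was -0.50 ± 0.30 (2 KO mice, adjusted p = 0.84), and within the first name at a minimum of 10 cells it was -0.53 ± 0.25 (2 KO mice, adjusted p = 0.55). Cstb in microglia had a log2 change of -0.55 ± 0.27 (adjusted p = 0.42), from 5 to 35 UMIs per KO mouse. Of the other proteases in microglia, Ctsb stood at -0.43 ± 0.22 (adjusted p = 0.45), Ctsz at -0.40 ± 0.23 (0.51), Ctss at -0.24 ± 0.21 (0.69) and Ctsc at 0.25 ± 0.26 (0.74). Ctsd and Ctsh lay close to 0, at -0.09 ± 0.20 (adjusted p = 0.89) and -0.08 ± 0.24 (0.92). With intervals this wide the data do not show that these genes were alike in the 2 genotypes.

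In the monocyte-derived class, not a target of the driver, 10 of 10 genes were tested with all 7 mice. None was called, and neither was any of the 11943 genes tested (0%), while DESeq2 called 1 member, Ctsw, beside 0.162% of all genes (20 genes). At an unadjusted p under 0.05 there was 1 of 10, again Ctsw, beside 5.64% of all genes. Ctsb had the largest difference among the others. It stood at 1839, 1588, 1523 and 2396 CPM in KO and at 3076, 2428 and 2100 CPM in WT. KO replicate 4 lay within the WT range, and the log2 change was -0.44 ± 0.20 (adjusted p = 0.88). Within P5 macrophages Ctsb stood at 2077 to 2975 CPM in the 4 KO mice and 2983 to 3937 CPM in the 3 WT mice. Its log2 change there was -0.47 ± 0.17 (adjusted p = 0.70). Of the 10 members in P5 macrophages, 2 lay lower in every KO mouse (Ctsb and Ctsd), beside 4.51% of the genes tested. Another 2 lay higher in every KO mouse (Ctsc and Ctsw), beside 2.81%. Over the whole class Ctsd had a log2 change of -0.36 ± 0.24 (adjusted p = 0.92), Ctsz -0.19 ± 0.15 (0.92), Ctsh 0.17 ± 0.14 (0.92) and Cst3 -0.15 ± 0.17 (0.94). Cstb, at -0.12 ± 0.26 (0.96), Ctsc, at 0.10 ± 0.15 (0.96), Ctss, at -0.07 ± 0.15 (0.96), and Ctsl, at -0.03 ± 0.19 (0.99), were nearest to 0. Ctsl in these cells stood at 362, 528, 458 and 479 CPM in KO and at 377, 513 and 513 CPM in WT, and the groups overlapped throughout.

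The genotype effects in microglia and in monocyte-derived cells were then set against each other in 1 fit with a term per mouse over the 3 KO and 3 WT mice with 20 cells of both. Ctsl was called, the 1 member of 10, beside 0.414% of the 12570 genes tested (52 genes), and 4 of 10 had an unadjusted p under 0.05 beside 9.85%. Its effect in microglia was lower than that in monocyte-derived cells by a log2 difference of -1.23 with an SE of 0.26 and an adjusted p of 0.00467. The median over all genes tested was -0.11, with 55.6% of genes below 0. The call held under another scaling and without KO replicates 1, 2 or 4 or WT replicates 2 or 3 in turn. It was lost without WT replicate 1 (-1.05, adjusted p = 0.181), at a minimum of 10 cells, where KO replicate 3 enters (-1.45, adjusted p = 0.175), and with low-quality microglia only (-0.85, adjusted p = 0.98 with 2 KO mice, and -1.19, adjusted p = 0.26 with 4 KO mice at a minimum of 10 cells). The differences for Cst3 (-0.70 ± 0.27, adjusted p = 0.29), Cstb (-0.77 ± 0.31, adjusted p = 0.32) and Ctsw (2.48 ± 1.05, adjusted p = 0.36) were not called, and the remaining 6 lay between -0.43 and 0.02. Ctsw had not passed the filter on low counts in microglia alone. It rested there on 11, 0 and 5 UMIs in KO replicates 1, 2 and 4 and on 0, 0 and 2 UMIs in WT. With 1 mouse left out its difference ran from 1.83 to 7.48. In microglia alone the filter had passed 4820 genes, against the 12570 of this fit. With low-quality microglia only, the Cstb difference turned to 0.36 ± 0.59, and to 0.16 at a minimum of 10 cells.

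The log2 change of Ctsw was above 0 in the 6 class fits and the 15 fits of single types that tested it. EdgeR called none of them. All draw on the same 7 mice, and a class holds the cells of its single types, so these fits are not separate results. Where Ctsw was near the floor, it could pass the filter on low counts through the KO mice alone. The shared direction over the fits is therefore not a result of its own. DESeq2 called Ctsw in monocyte-derived cells, mo-DCs, P5 macrophages and cDC1. In T cells it stood at 543, 740, 660 and 560 CPM in KO and at 341, 362 and 486 CPM in WT. Every KO mouse lay above every WT mouse, as for 3.03% of the genes tested in T cells, and the log2 change was 0.69 ± 0.18 with an adjusted p of 0.72. CD8 T cells, which hold more Ctsw than CD4 T cells, made up 52.2, 63.0, 78.3 and 63.6% of the T cells in KO and 40.5, 33.4 and 59.2% in WT. Within naive or early CD4 T cells the log2 change was 0.85 ± 0.20 (adjusted p = 0.31), with 291 to 387 CPM in KO and 135 to 236 CPM in WT, a gap that 2.61% of genes showed. Within naive or early CD8 T cells it was 0.37 ± 0.15 (adjusted p = 0.90) and within Th1 cells 0.70 ± 0.23 (4 KO and 2 WT mice, adjusted p = 1.00 in edgeR). In NK cells, the type with the highest level, Ctsw stood at 862, 882, 941 and 920 CPM in KO and at 753, 1041 and 679 CPM in WT. These groups overlapped, with a log2 change of 0.12 ± 0.17 (adjusted p = 1.00).

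In myeloid cells Ctsw was near the floor, and it could pass the filter on low counts through the KO mice, the higher group. Its separation of the genotypes and its p-values there are given as a description and not as support for a change. Monocyte-derived cells held 12.8, 10.8, 10.5 and 8.35 CPM in KO, from 39 to 61 UMIs per mouse, and 1.71, 3.27 and 3.54 CPM in WT, from 23 to 41 UMIs. The log2 change was 1.90 ± 0.30 (unadjusted p = 1.24e-04, adjusted p = 0.74). Non-overlap with KO higher was seen for 1 of 10 members here, beside 2.74% of all genes. In mo-DCs and conventional dendritic cells it was again seen for 1 of 10, Ctsw, beside 5.35 and 5.07% of all genes. mo-DCs and conventional dendritic cells showed log2 changes of 1.89 ± 0.30 (adjusted p = 0.42) and 1.86 ± 0.40 (adjusted p = 0.53), P5 macrophages 2.22 ± 0.36 (adjusted p = 0.24), P3 macrophages 1.64 ± 0.39 (adjusted p = 0.75) and cDC1 2.29 ± 0.42 (adjusted p = 0.21). In pDCs, where the level was higher, it was 0.08 ± 0.25. Markers of T cells moved with it: the summed CPM of 8 T cell markers in monocyte-derived cells was 54.6 to 84.5 in KO and 15.7 to 35.7 in WT, with all 8 above 0 in each mouse. In conventional dendritic cells it was 69.2 to 118 in KO and 8.99 to 38.6 in WT. The part of T cell RNA or of T cells captured with these cells in the Ctsw values was not tested. Ctsw also overlaps Fibp on the opposite strand.

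**Figure D4:**
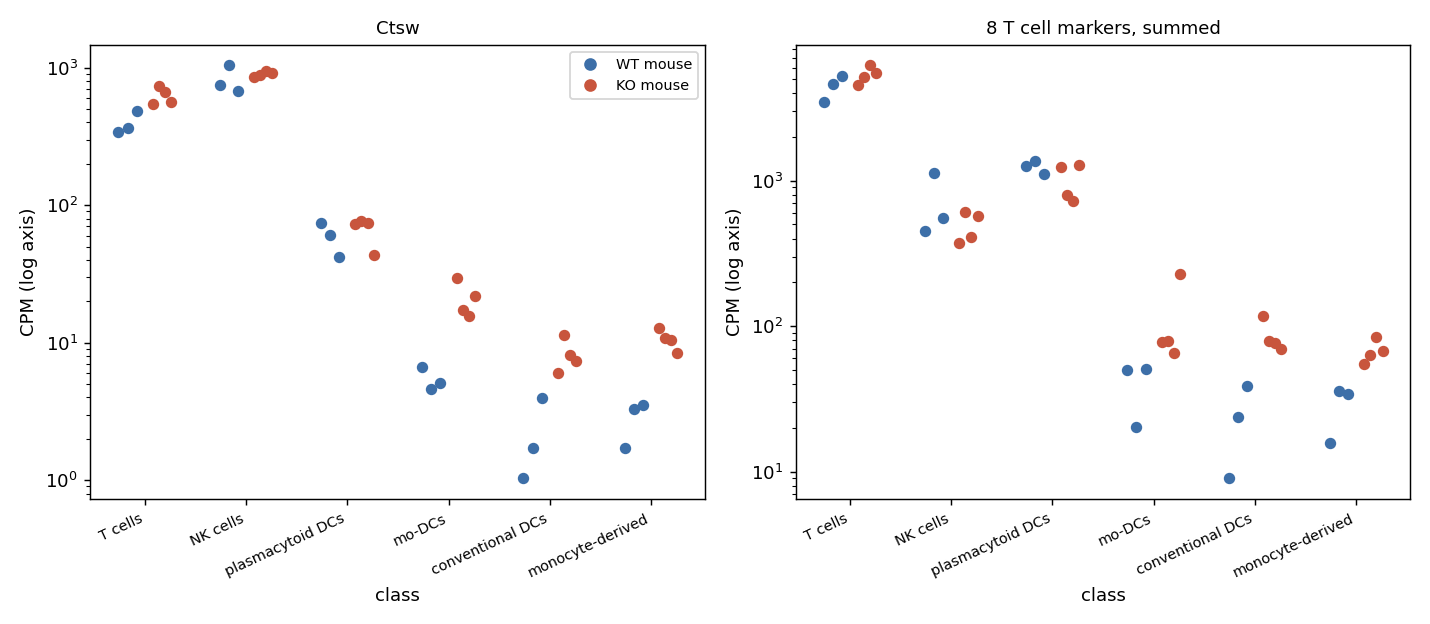
Ctsw (left) and the sum of 8 T cell markers (right) in CPM on log axes, per mouse with at least 20 cells, in 6 classes, with WT in blue and KO in red. In monocyte-derived cells both are higher in every KO mouse (Ctsw 8.35 to 12.8, markers 54.6 to 84.5) than in every WT mouse (Ctsw 1.71 to 3.54, markers 15.7 to 35.7).

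In the other classes no member was called either: 0 of 10 in mo-DCs, conventional dendritic cells, pDCs, T cells and NK cells, 0 of 8 in B cells and 0 of 9 in tumour or stromal cells by edgeR. DESeq2 called Ctsw in mo-DCs, beside 0.335% of all genes, and no member in the other 6. Its shares over all genes were 0.115% in conventional dendritic cells, 0.0238% in pDCs, 0.243% in T cells, 0.0275% in NK cells, 0.0106% in B cells and 0.0647% in tumour or stromal cells. Of all genes tested, 0% were called in mo-DCs, conventional dendritic cells, T cells and B cells, 0.045% in pDCs, 0.0141% in NK cells and 0.0288% in tumour or stromal cells. At an unadjusted p under 0.05 there was 1 member in mo-DCs and in conventional dendritic cells (Ctsw), none in pDCs and B cells, 3 in T cells, 3 in NK cells and 1 in tumour or stromal cells. Beside these, 7.6, 6.95, 6.38, 0.947, 6.56, 4.09 and 8.62% of all genes had such a p in mo-DCs, conventional dendritic cells, pDCs, B cells, T cells, NK cells and tumour or stromal cells. The T cell genes were Ctsw, Ctsd (0.53 ± 0.20, adjusted p = 0.72) and Ctsz (-0.66 ± 0.26, adjusted p = 0.73). CD8 cells made up 52.2 to 78.3% of the T cells in KO and 33.4 to 59.2% in WT, ranges that overlap, and exhausted CD8 T cells held the most Ctsd and the least Ctsz of the T cell types by mean. The part of this make-up in the values of the class was not tested. Within naive or early CD4 T cells the log2 change was 0.39 ± 0.20 for Ctsd (adjusted p = 0.97) and -0.15 ± 0.27 for Ctsz (adjusted p = 1.00), and within precursor-exhausted CD8 T cells it was 0.23 ± 0.19 and -0.29 ± 0.32 (adjusted p = 1.00 each). Ctsd in T cells stood at 487, 610, 601 and 471 CPM in KO and at 281, 388 and 481 CPM in WT, and the groups overlapped at KO replicate 4. In NK cells they were Ctsb (-0.56 ± 0.20), Ctsz (-0.62 ± 0.25) and Cst3 (-0.51 ± 0.21), each with an adjusted p of 1.00, and each gene is low in NK cells against myeloid types. Cst3 in tumour or stromal cells had a log2 change of 0.53 ± 0.17 (adjusted p = 0.40), with 2 KO and 3 WT mice.

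**Figure D5:**
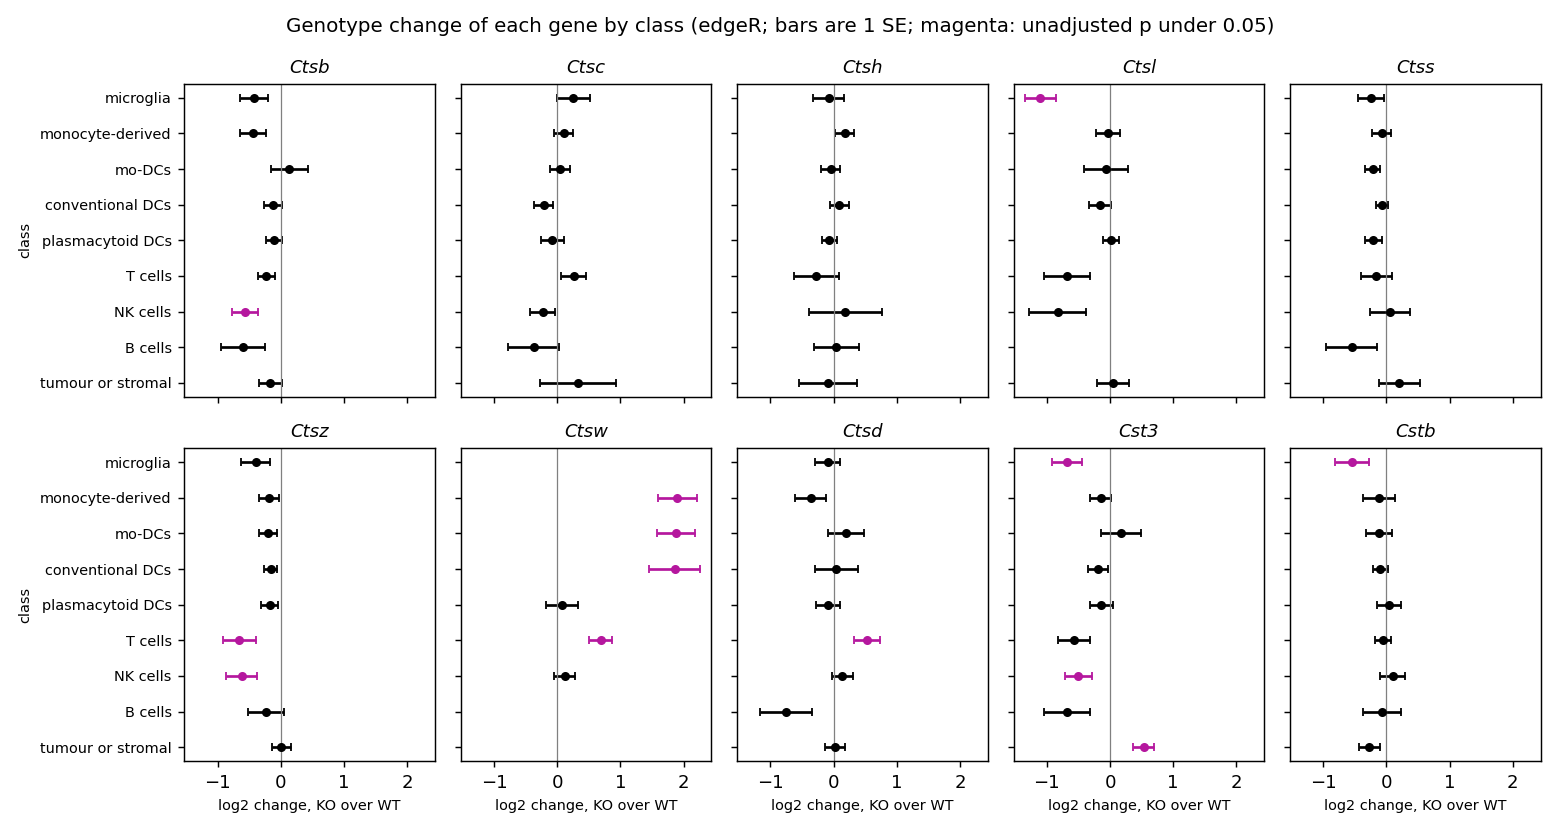
Log2 change of KO over WT (horizontal axis) for each gene in each class where it was tested. Bars are 1 SE derived from edgeR's F statistic, and magenta marks an unadjusted p under 0.05. Ctsl in microglia lies at -1.10 while Ctsl in monocyte-derived cells lies at -0.03, and Ctsw lies above 0 in all 6 classes shown; no point passed the adjusted threshold.

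Among single cell types, 21 of the 23 had at least 2 mice of each genotype with 20 cells, which gave 202 pairs of a member and a type, and edgeR called 1 of them, where 0.0166% of all pairs of a gene and a type were called. Cst3 was called in Th1 CD4 T cells, beside 0.0326% of the 9209 genes tested there (3 genes). It stood at 492, 602, 551 and 562 CPM in the 4 KO mice and at 1016 and 1247 CPM in WT replicates 2 and 3. The 2 groups in the fit did not overlap, as for 5.98% of the genes tested, and the log2 change was -1.04 ± 0.16 (SE) with an adjusted p of 0.0488. WT replicate 1, left out with 8 Th1 cells, held 355 CPM from 27 UMIs, below all 4 KO mice. The fit with a block for the replicate number keeps only numbers found in both genotypes, here KO replicates 2 and 3 and WT replicates 2 and 3. In that smaller edgeR fit Cst3 was not called (adjusted p = 0.582), and the block and the loss of mice cannot be told apart. With whole values only the call was also lost (adjusted p = 0.0579). It was lost without any of the 4 KO mice in turn or without WT replicate 3 (adjusted p from 0.0683 to 0.394), and it was kept without WT replicate 2 (adjusted p = 0.0487). Each of the fits without a WT mouse sets 4 KO mice against 1 WT mouse, so that the spread comes from the KO mice alone and the lone WT mouse is assumed to vary like them. Beside it, 10 myeloid genes read for free RNA summed to 414 to 1681 CPM in KO and 1137 to 1176 CPM in WT Th1 cells, and 7 conventional dendritic markers to 10.7 to 30.5 and 17.2 to 22.6 CPM, with 1 to 3 of the 7 at 0 in a mouse. Their part in the Cst3 difference was not tested. In Tfh cells Cst3 had a log2 change of -0.78 ± 0.28 (adjusted p = 1.00) and in cDC2 of -0.39 ± 0.17 (adjusted p = 0.47).

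Of the 202 pairs, 24 had an unadjusted p under 0.05, beside 5.43% of all pairs of a gene and a type, and apart from Cst3 in Th1 cells edgeR called none. DESeq2 called 4 pairs, Cst3 in Th1 cells and Ctsw in P5 macrophages, mo-DCs and cDC1, beside 0.0468% of all pairs. Ctsb was lower in KO in P5 macrophages (above), in proliferating macrophages (-0.48 ± 0.19, adjusted p = 1.00) and in naive or early CD8 T cells (-0.40 ± 0.19, adjusted p = 1.00). Ctsl stood at -0.61 ± 0.27 in naive or early CD8 T cells (adjusted p = 0.97) and at -1.35 ± 0.53 in proliferating CD8 T cells (adjusted p = 1.00), where its mean level was 11.9 CPM. Ctsz stood at -0.39 ± 0.16 in P1-P2 monocytes (adjusted p = 0.69) and at -0.43 ± 0.19 in proliferating CD4 T cells and Tregs (adjusted p = 1.00). Ctsd in naive or early CD8 T cells stood at 0.40 ± 0.17 (adjusted p = 0.97) and Cstb in cDC2 at -0.40 ± 0.16 (adjusted p = 0.44). Ctsc, Ctsh and Ctss had no type with such a p among 21 each.

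The other genes of the lysosomal pathway were read from lists. In microglia 0 of 26 tested lysosomal hydrolases and activators, 0 of 11 lysosomal membrane proteins, 0 of 15 vacuolar ATPase subunits (the proton pump of the lysosome), 0 of 5 sorting and transcription genes and 0 of 5 other cathepsins were called by edgeR. Their unadjusted p was under 0.05 for 3, 2, 1, 1 and 0 genes, beside 11.8% of all genes tested. Among the hydrolases Gla stood at 0.92 ± 0.31 (adjusted p = 0.20) and Pld3 at -0.56 ± 0.26 (0.38). Among the membrane proteins Cd68 (-0.61 ± 0.26, adjusted p = 0.33) and Cd63 (-0.52 ± 0.24, 0.37) came first, followed by Scarb2 (0.40 ± 0.28, 0.59). In the pump Atp6v1h stood at 0.70 ± 0.32 (adjusted p = 0.37) and Atp6ap1, close to Ctsl in its profile over types, at -0.51 ± 0.27 (0.46). The list medians were -0.12 for hydrolases, -0.15 for membrane proteins, -0.30 for the pump and -0.20 for other cathepsins. The sorting and transcription list lay the other way at 0.089, and the median of all genes tested was 0.000391. In monocyte-derived cells 0 of 30 hydrolases, 0 of 12 membrane proteins, 0 of 15 pump subunits and 0 of 7 sorting genes were called, with unadjusted p under 0.05 for Asah1 (0.39 ± 0.15), Man2b1 (0.40 ± 0.16) and Mitf (-0.30 ± 0.13), adjusted p at least 0.83, beside 5.64% of all genes.

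Partners of the cathepsins in antigen presentation (Cd74, which is the invariant chain, the class II genes H2-Aa, H2-Ab1 and H2-Eb1, the peptide exchange genes H2-DMa and H2-DMb1, and the thiol reductase Ifi30) were not called in either class, 0 of 7 in each, and none of the 7 had an unadjusted p under 0.05. Their median log2 change was -0.47 in microglia and 0.62 in monocyte-derived cells. In the test of the difference between those effects, 1 of 7 was called: H2-Aa, at -1.18 ± 0.29 (adjusted p = 0.0235), beside 0.414% of all genes. All 7 lay below 0 with an unadjusted p under 0.05, where 55.6% of all genes lay below 0 and 9.85% had such a p, and their median was -0.98 beside -0.11 for all genes tested. Ctss, the protease that works on the invariant chain, had a difference of only -0.26 ± 0.27 (adjusted p = 0.83) in the same fit. Alternatives of this fit were not examined for the 7 genes, whose values come from the same mice. Over all genes it called 52, against 5 with low-quality microglia only and 3 with these at a minimum of 10 cells. Low-quality cells were 66.7 to 100% of KO microglia and 47.8 to 61.1% of WT microglia, and their part was not tested. The lysosomal lists had no call by edgeR in the test of the difference. An unadjusted p under 0.05 was found for 6 of 30 hydrolases and activators (5 below 0), 3 of 12 membrane proteins (3 below 0) and 2 of 15 pump subunits (2 below 0), with list medians of -0.29, -0.27 and -0.45. Granule genes were tested beside Ctsw, and in monocyte-derived cells edgeR called 0 of 7. There Nkg7, a gene of cytotoxic granules, stood at 1.56 ± 0.40 (unadjusted p = 0.00413, adjusted p = 0.83), followed by Gzmb (0.68 ± 0.36) and Gzmc (0.97 ± 0.81). In the test of the difference 0 of 9 granule genes were called. An unadjusted p under 0.05 was found for 3 of the 9, all 3 above 0, with a list median of 1.27. Only 1 of the 9 had passed the filter on low counts in microglia alone, with a log2 change of -0.18. The list therefore gives no reading of a rise of granule genes in KO microglia.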

How the data were processed

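Single-cell RNA was captured with the 10x 5-prime kit, 1 library for each of 4 KO and 3 WT mice, per the labels' protocols. The submitters' processing notes name FastQC 0.11.5, STAR 2.7.10a, STARsolo and build mm10. The authors deposited 1 matrix of expected counts (UMI values per gene and cell, of which 7.51% of those above 0 are not whole within 1e-06) with a table of cells that gives each cell's library and type name; filters on cells and doublet removal were not given in the sources used here, and no further cells were removed. The non-whole values hold 1.06% of the UMIs of Ctsd, 0.00316% of those of Ctsl and 0 for the other 8 genes.

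UMIs were summed per mouse and type (23 names, 9 classes) and rounded to whole numbers for the tests. A mouse entered with at least 20 cells. Genes were filtered with edgeR's filterByExpr, scaled by TMM and tested with edgeR 4.0.16's quasi-likelihood test (R 4.3.3, limma 3.58.1), KO against WT, with Benjamini-Hochberg adjustment over all genes tested in a fit and a threshold of 0.05. Effects in microglia and in monocyte-derived cells were compared in 1 fit with a term per mouse. The edgeR test gives no SE, so each SE is the absolute log2 change divided by the square root of its F statistic. DESeq2 1.42.0, RLE scaling, no filter on low counts, whole values only, a minimum of 10 cells, sex read from the data as a term, a block for the replicate number and leaving out each mouse were alternatives; fits within 1 microglia name were chosen after seeing the data. Shares of cells with a UMI were taken after thinning each cell to 1500 UMIs, which kept 28201 of 28644 cells (17038 KO and 11163 WT). Python 3.11.15, numpy 2.4.6, pandas 2.3.3 and scipy 1.17.1 were used for sums and levels.

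The genes and lists were chosen with earlier results of these data known, and the named genes outside the set are the 3 most alike over types and the 3 with the smallest p per list. Some of the genes this rule names are not reported here. Each library came from 1 mouse, and p-values set a difference between the genotypes against the spread between these mice. In the fit with a term per mouse, they set it against how the difference between microglia and monocyte-derived cells varied over mice. Promoter sequences are from RefSeq, build GRCm38.p6. Depth ran from a median of 4479 to 9554 UMIs per cell, and the libraries held 1410 to 5856 cells.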

Additional observations from a re-analysis of the deposited data

Results flagged for a closer look

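The genotype effect on Ctsl differed between microglia and monocyte-derived cells, with a log2 difference of -1.23 (edgeR's quasi-likelihood test, adjusted p = 0.00467) that pointed to lower levels in KO microglia. The call was lost without WT replicate 1 (-1.05, adjusted p = 0.181), at a minimum of 10 cells (-1.45, adjusted p = 0.175) and with low-quality microglia only (-0.85, adjusted p = 0.982, and -1.19, adjusted p = 0.264 at a minimum of 10 cells), with the same direction each time.

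In 3 groups of 4 KO mice, of 60 such groups examined, 1 mouse stood apart from the others, and chance flags about 1 in 20 groups. Ctsc in monocyte-derived cells stood at 1504 CPM in KO replicate 1, against 1188 to 1202 CPM in the other KO mice. Ctsd in monocyte-derived cells stood at 471 CPM in KO replicate 3, against 868 to 932 CPM in the others. Ctsw in pDCs stood at 43.2 CPM in KO replicate 4, against 72.7 to 76.6 CPM in the others.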

How the results depend on the processing

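Over 57 results the alternatives gave 696 values of the same call, 29 reversed, 14 that passed the threshold or moved up and 11 that lost it. The number of genes called rose from 0 to 1 with DESeq2 in microglia, monocyte-derived cells and mo-DCs. With no filter on low counts it was 2 in microglia and 1 each in monocyte-derived cells, mo-DCs, conventional dendritic cells and tumour or stromal cells. Leaving out 1 mouse gave 0 to 1 in microglia, where Ctsl was called without KO replicate 2.

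Over the types, the 1 call became 4 with DESeq2 (Ctsw in P5 macrophages, mo-DCs and cDC1, and Cst3 in Th1 cells), 7 with no filter, 0 with whole values only, and 0 to 1 with 1 mouse left out. With the replicate number as a block it was 0, but these fits also leave out each mouse without a same-numbered mouse of the other genotype, such as KO replicate 4. The block gave 0 calls in the classes, as without it. Same-numbered mice had correlations of 0.0899, 0.161 and -0.326 between their deviations from the genotype mean in monocyte-derived cells. In T cells these were 0.0439, 0.0669 and -0.189. With so few mice per genotype, the check cannot show whether a number marks a shared litter or day. The 1 call for the difference between microglia and monocyte-derived cells became 0 at a minimum of 10 cells, 0 to 1 with 1 mouse left out, and 0 with low-quality microglia only, also at a minimum of 10 cells. Without thinning, 5 of 10 genes kept the same type with the highest share of cells.

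The values below reversed, and the cause was not tested. The largest main value among them was the difference for Cstb, at -0.77. In microglia Ctss went to 0.048 in the first name, Ctsd to 0.29 in low-quality cells (0.26 at a minimum of 10 cells), to 0.18 in the first name and from -0.19 to 0.026 with 1 mouse left out, Ctsh to 0.13 in low-quality cells (0.13 at a minimum of 10 cells) and 0.15 in the first name, and Ctsz to 0.11 in low-quality cells. In monocyte-derived cells, with 1 mouse left out, Ctss ran from -0.14 to 0.029, Ctsl from -0.18 to 0.075 and Cstb from -0.37 to 0.042. For the difference between them, low-quality microglia gave 0.070 for Ctss, 0.47 for Ctsd, 0.034 for Ctsh, 0.10 for Ctsz, 0.15 for Ctsb and 0.36 for Cstb, and at a minimum of 10 cells 0.47 for Ctsd, 0.22 for Ctsb, 0.16 for Cstb and -0.17 for Ctsc. Ctsc went to -0.18 with both microglia names at a minimum of 10 cells and ran from -0.20 to 0.21 with 1 mouse left out, and Ctsd from -0.20 to 0.14. The 13 to 49 microglia of a KO mouse limit all microglia values.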
